A study of Mus musculus with 19 samples.

Results

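Endothelial and blood-derived cells sorted from mouse hindlimb muscle, the lineage-positive (Lin+) fraction, were compared with whole muscle by RNA sequencing. The comparison was defined by the sample labels alone and used 8 of the 19 libraries of the series, 4 of the Lin+ fraction and 4 of whole muscle. All animals were C57BL/6J mice. When 8 weeks old they were injected with tamoxifen, 2.5 mg on each of 5 days in a row, and left untreated for 10 more days, the whole-muscle animals included. The other 11 libraries were 4 of the lineage-negative (Lin-) fraction, 4 of Lin- Sca1- cells and 3 of Lin- Sca1+ cells, which the labels name mesenchymal progenitors. All came from the same tissue, strain and treatment, and their values are set beside those of the comparison. Expression is in FPKM, fragments scaled to the length of the transcript and to the mapped fragments of the library. Of the gene entries with a value in every library, 14043 reached at least 1 FPKM in at least 3 libraries and were tested, and a gene was called at an adjusted p under 0.05.

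Skeletal muscle is built of multinucleated fibres whose cytoplasm is filled with contractile proteins, calcium-handling membranes and mitochondria. Between the fibres lie a dense capillary bed, resident macrophages, mast cells and lymphocytes, and stromal cells. Release of single cells from muscle requires mincing and enzymatic digestion, and this handling is known to induce immediate early genes such as Fos, heat shock genes and inflammatory cytokines in many cell types. A comparison of sorted cells with whole tissue therefore holds several kinds of difference at once, and here they were described separately with gene lists for fibre RNA, for cell types, and for the early response.

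The labels do not settle what the whole-muscle libraries were made from. Their titles name a mononuclear suspension, their tissue and column names say whole muscle, and the protocol speaks of sorted cells for every library. In the data, 116 genes of the fibre lists held 39.9% ± 1.64 (SD, n = 4) of the summed FPKM in whole muscle and 0.738% ± 0.047 (SD, n = 4) in Lin+ cells. They include 25 general respiratory chain and citrate cycle genes, which every cell uses and which held 3.25% and 0.477% on average. Sarcomere genes alone held 24.4% in whole muscle and 0.132% in Lin+ cells, so fibre RNA was abundant in the whole-muscle libraries. Whether whole muscle passed through digestion and sorting is not given in the sources used here, so the response of cells to handling and the cell content of the 2 preparations cannot be told apart. Read totals are not given. In genes with few fragments, 1 fragment was worth 1.00 to 4.92 times the smallest step among the 8 libraries, whole muscle replicate 3 being the least deep by this measure. The number of entries at or above 1 FPKM was 10737 to 10884 in whole muscle and 11590 to 12224 in Lin+ cells. Spearman correlations across the genes tested were 0.973 to 0.986 among whole-muscle libraries, 0.919 to 0.983 among Lin+ libraries and 0.545 to 0.598 between the groups. The second principal component, with 6.04% of the variance, separated Lin+ replicates 1 and 2 from replicates 3 and 4, and where 1 of these pairs alone changes the call of a named gene, this is said beside it. The labels do not say that replicates were separate animals, and p-values then measure only the spread between these libraries, which may be technical.

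The 3 genes that mark fibres, endothelium and blood-derived cells separated the groups in the direction of their labels. Acta1 (alpha skeletal actin, chr8:123891758-123894775, mm10), the thin-filament actin of fibres, measured 14052, 12993, 10692 and 15410 FPKM in the 4 whole-muscle libraries and 12.7, 7.43, 46.3 and 29.9 FPKM in the 4 Lin+ libraries. Pecam1 (CD31, chr11:106654218-106715281), an adhesion molecule of endothelial junctions, was 31.3, 32.8, 32.9 and 34.3 FPKM in whole muscle and 363, 371, 164 and 316 FPKM in Lin+. Ptprc (CD45, chr1:138062859-138175305), the phosphatase carried by nucleated blood cells, was 1.23, 1.05, 1.71 and 1.43 FPKM in whole muscle and 129, 131, 182 and 83.4 FPKM in Lin+. None of the 3 genes overlapped between the groups, and Lin+ replicate 3 had the lowest Pecam1 together with the highest Ptprc. The share of all genes without overlap was not counted, so here and below a lack of overlap only describes the genes named. The limma fit gave a log2 difference -9.34, SE 0.85, adjusted p = 1.37e-08 for Acta1, a log2 difference 3.10, SE 0.34, adjusted p = 1.95e-07 for Pecam1 and a log2 difference 5.77, SE 0.30, adjusted p = 6.1e-12 for Ptprc. Differences are of log2(FPKM + 1), Lin+ minus whole muscle, and for genes of low level this scale gives less than the true change. In the Lin- fraction Ptprc averaged 1.38 ± 1.19 FPKM (SD, n = 4), near the whole-muscle level, and Pecam1 averaged 5.24 ± 1.39 FPKM.

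**Figure D1:**
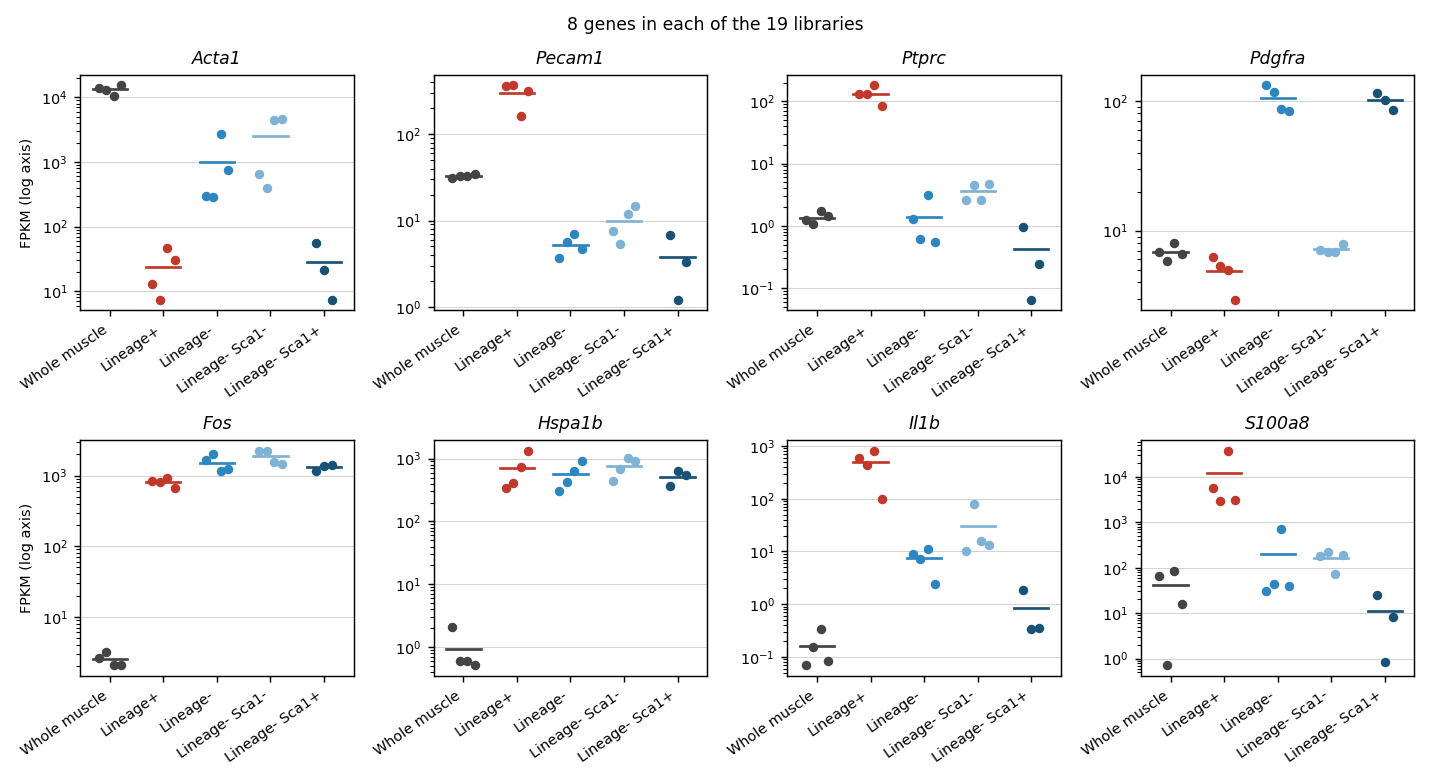
FPKM on a log axis for 8 genes in each of the 19 libraries, with points for libraries and lines for group means. Acta1 falls from 10692 to 15410 in whole muscle to 7.43 to 46.3 in Lineage+ cells, Pecam1 and Ptprc are highest in Lineage+ cells, and Fos and Hspa1b are high in all 4 sorted groups and low in whole muscle.

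Across all genes tested, 10077 of 14043 (71.8%) were called, 6855 higher in Lin+ (48.8%) and 3222 lower (22.9%). With a change of at least 2-fold, 4803 were higher (34.2%) and 2131 lower (15.2%). The median difference over all genes tested was 0.45 on the log2 scale. After median-of-ratios scaling this median was 0.04, and 5159 genes were called higher (36.8% of 14011) and 4819 lower (34.4%), 71.2% in all. With scaling on all genes but the 116 fibre genes the median was 0.10. Differences near 0.45 therefore depend on the scaling, and genes whose call is lost after median-of-ratios scaling are named beside their values. The filter itself fixes the direction of some genes: 738 of those tested passed it only through Lin+ libraries and 198 only through whole muscle. Among list members the former were 2 of 20 macrophage, 6 of 14 dendritic cell, 3 of 14 neutrophil, 11 of 14 T and NK cell, 5 of 10 B cell, 3 of 9 mast cell, 3 of 17 inflammatory and 2 of 12 interferon genes, 2 venous genes, and 1 gene each of the arterial, lymphatic and platelet lists. The latter were 3 dystrophin complex, 2 calcium handling and 2 adipocyte genes, and 1 gene each of the sarcomere and platelet lists. Counts over these lists describe the members and do not test them. They are to be read beside the 48.8% called higher and 22.9% called lower among all genes. The 12 genes with the largest differences in each direction were chosen among genes without overlap between the groups. Their lack of overlap is therefore not a separate result. In bulk RNA, fewer cells of a type and less RNA per cell cannot be told apart.

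Transcripts of the contractile apparatus were almost absent from Lin+ cells. Of 31 sarcomere genes tested, 30 fell and 1 rose, with a median log2 difference of -8.93, against a background of 22.9% called lower. Myh1, the fast 2X myosin heavy chain, was 3274, 2164, 2214 and 3251 FPKM in whole muscle and 0.0991, 0.0889, 0.327 and 0.118 FPKM in Lin+ (log2 difference -11.18, SE 0.48, adjusted p = 6.23e-13). Its close relatives share sequence, so the division of reads among myosin heavy chain genes is uncertain. Tnnt3, the fast troponin T, was 22276, 18759, 17694 and 19198 FPKM in whole muscle and 15.2, 15.4, 46.9 and 17.1 FPKM in Lin+ (log2 difference -9.79, SE 0.66, adjusted p = 2.37e-10). Both genes were chosen among those without overlap between the groups, and Lin+ replicate 3 had the highest residual level of each. Among other members of the list, Tnnc2, the calcium-binding troponin C, averaged 13893 ± 1632 FPKM in whole muscle and 19.5 ± 16.5 FPKM in Lin+ (SD, n = 4 each). Mylpf, the fast regulatory light chain, averaged 15745 ± 3578 and 18.8 ± 5.51 FPKM in the same order. Mybpc1, a slow myosin-binding protein, averaged 1192 ± 43.1 and 0.454 ± 0.241 FPKM, and Tcap, a titin cap protein of the Z disc, 2155 ± 308 and 1.77 ± 1.27 FPKM. The member that rose was Tpm3, a tropomyosin whose gene gives both a slow-fibre form and forms used by non-muscle cells. Tpm3 was 38.3, 27.3, 24.2 and 28.8 FPKM in whole muscle and 196, 184, 402 and 361 FPKM in Lin+ (log2 difference 3.16, SE 0.30, adjusted p = 2.84e-08).

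The promoter of Acta1 is shown because it carries the element best known from muscle actin genes. The CArG box, which serum response factor binds, stands in capitals 73 to 64 bases before the transcription start in the 250 bases before it (chr8:123894776-123895025, minus strand, RefSeq promoter table, GRCm38.p6).
Acta1: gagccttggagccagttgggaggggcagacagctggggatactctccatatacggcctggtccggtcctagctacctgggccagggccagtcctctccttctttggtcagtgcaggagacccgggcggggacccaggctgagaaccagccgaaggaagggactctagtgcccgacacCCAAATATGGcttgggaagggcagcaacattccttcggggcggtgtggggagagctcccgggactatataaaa
Both strands of the window from 250 bases before to 50 bases after the start were searched. A CArG box was in 5 of 24 sarcomere genes with a promoter in the table (20.8%). It was in 1.81% of all 27025 genes with a promoter. A match describes letters and not a bound site.

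Membrane and calcium-handling genes of fibres followed the same pattern. Of 20 such genes 19 fell and 1 rose (median -6.42). Atp2a1, the fast-fibre calcium pump of the sarcoplasmic reticulum, was 7690.4, 8126, 7234 and 7695 FPKM in whole muscle and 3.498, 2.47, 6.63 and 3.02 FPKM in Lin+ (log2 difference -10.68, SE 0.54, adjusted p = 4.84e-12). Pvalb, the calcium buffer parvalbumin of fast fibres, was 7045, 9094, 9197 and 9229.8 FPKM in whole muscle and 5.14, 5.29, 13.6 and 6.395 FPKM in Lin+ (log2 difference -10.06, SE 0.58, adjusted p = 2.92e-11). In both genes every whole-muscle library lay far above every Lin+ library, a lack of overlap being a condition of their choice. Casq1, calsequestrin, averaged 2044 ± 56.6 FPKM in whole muscle and 1.81 ± 0.868 FPKM in Lin+, and Srl, sarcalumenin, 480 ± 55.1 and 0.481 ± 0.178 FPKM. Atp2a2, the pump isoform of slow fibres that non-muscle cells also use, was the member that rose, from 16.7, 17.1, 19.1 and 19.7 FPKM in whole muscle to 43.7, 42.2, 47.8 and 42.3 FPKM in Lin+ (log2 difference 1.23, SE 0.21, adjusted p = 2.97e-05).

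All 22 genes of muscle energy supply fell (median -7.86). Mb, myoglobin, was 4498, 4305, 4012 and 6140.2 FPKM in whole muscle and 2.196, 2.02, 4.77 and 1.21 FPKM in Lin+ (log2 difference -10.46, SE 0.46, adjusted p = 9.08e-13). Ckm, the muscle creatine kinase, was 7690.3, 6545, 4537 and 6149.6 FPKM in whole muscle and 3.91, 2.39, 10.6 and 4.17 FPKM in Lin+ (log2 difference -10.09, SE 0.77, adjusted p = 1.37e-09). These are the oxygen store and the phosphate buffer of the fibre, and neither overlapped between the groups, a condition of their choice. Ckmt2, the mitochondrial creatine kinase of muscle, averaged 1718 ± 60.8 FPKM in whole muscle and 0.658 ± 0.601 FPKM in Lin+, and Fabp3, the muscle fatty-acid carrier, 1528 ± 574 and 1.29 ± 1.23 FPKM.

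General respiratory chain and citrate cycle genes, which every cell uses, also fell in all 25 cases, but by less (median -3.24). Idh3a, a subunit of isocitrate dehydrogenase, was 444, 436, 518 and 444 FPKM in whole muscle and 11.9, 14.7, 17.2 and 12.9 FPKM in Lin+ (log2 difference -4.94, SE 0.16, adjusted p = 1.71e-14). Uqcrc1, a core subunit of complex III, averaged 479.6 ± 25.99 and 24.8 ± 12.4 FPKM, and Cyc1, cytochrome c1, averaged 401 ± 83.9 and 23.8 ± 14.05 FPKM. For Uqcrc1 and Cyc1, Lin+ replicates 1 and 2 lay at 31.3 to 38.9 FPKM and replicates 3 and 4 at 10.9 to 15.8 FPKM. Against the Lin- fraction, 2 of these genes were called, both lower in Lin+ (median -0.19), where 51.1% of all genes tested were called, 25.3% higher and 25.8% lower. Same-numbered Lin+ and Lin- libraries deviated together, as did libraries within the pairs of replicates 1 and 2 or 3 and 4. With the replicate number as a block 6 were lower.

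Of 18 dystrophin complex and neuromuscular junction genes, 16 fell and the other 2 were not called (median -2.29). Trim72, a membrane repair protein, was 48.8, 61.3, 56.4 and 63.9 FPKM in whole muscle and 0.205, 0.0421, 0.0446 and 0.111 FPKM in Lin+ (log2 difference -5.73, SE 0.14, adjusted p = 2.03e-15), with every Lin+ library far below whole muscle. Sgca, alpha sarcoglycan, averaged 85.3 ± 11.4 and 0.881 ± 0.632 FPKM, and Cav3, the caveolin of muscle, 41.4 ± 5.48 and 0.222 ± 0.204 FPKM. The members not called were Dysf and Chrnb1, named after their values were seen. Dysf, the membrane repair protein dysferlin, was 11.5, 12, 11.4 and 12.7 FPKM in whole muscle and 26.99, 24.4, 5.68 and 11.97 FPKM in Lin+ (log2 difference 0.29, SE 0.32, adjusted p = 0.435), with Lin+ libraries on both sides of the whole-muscle range. It was called higher with Lin+ replicates 1 and 2 alone (1.05, adjusted p = 0.000242), with sample weights (0.89, adjusted p = 9.39e-05) and without Lin+ replicate 3 (0.70, adjusted p = 0.0139), while median-of-ratios scaling turned its sign (-0.29). Chrnb1, the beta subunit of the acetylcholine receptor, averaged 18.6 ± 2.36 FPKM in whole muscle and 18.4 ± 5.69 FPKM in Lin+ (log2 difference -0.047, SE 0.21, adjusted p = 0.854), and was lower after median-of-ratios scaling (-0.63, adjusted p = 0.014).

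Fibre RNA was lower in Lin+ than in the Lin- fraction as well, but near the level of Lin- Sca1+ cells. Sarcomere genes held 22.2 to 26% of summed FPKM in whole muscle, 0.0978 to 0.191% in Lin+ and 0.738 to 3.66% in Lin-. They held 0.0467 to 0.132% in Lin- Sca1+ cells and 1.41 to 8.79% in Lin- Sca1- cells. In the comparison of Lin+ with Lin-, 28 of 31 sarcomere genes were lower in Lin+ (median -2.98). Both comparisons use the same Lin+ libraries, so they are given side by side and not as separate support.

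**Figure D2:**
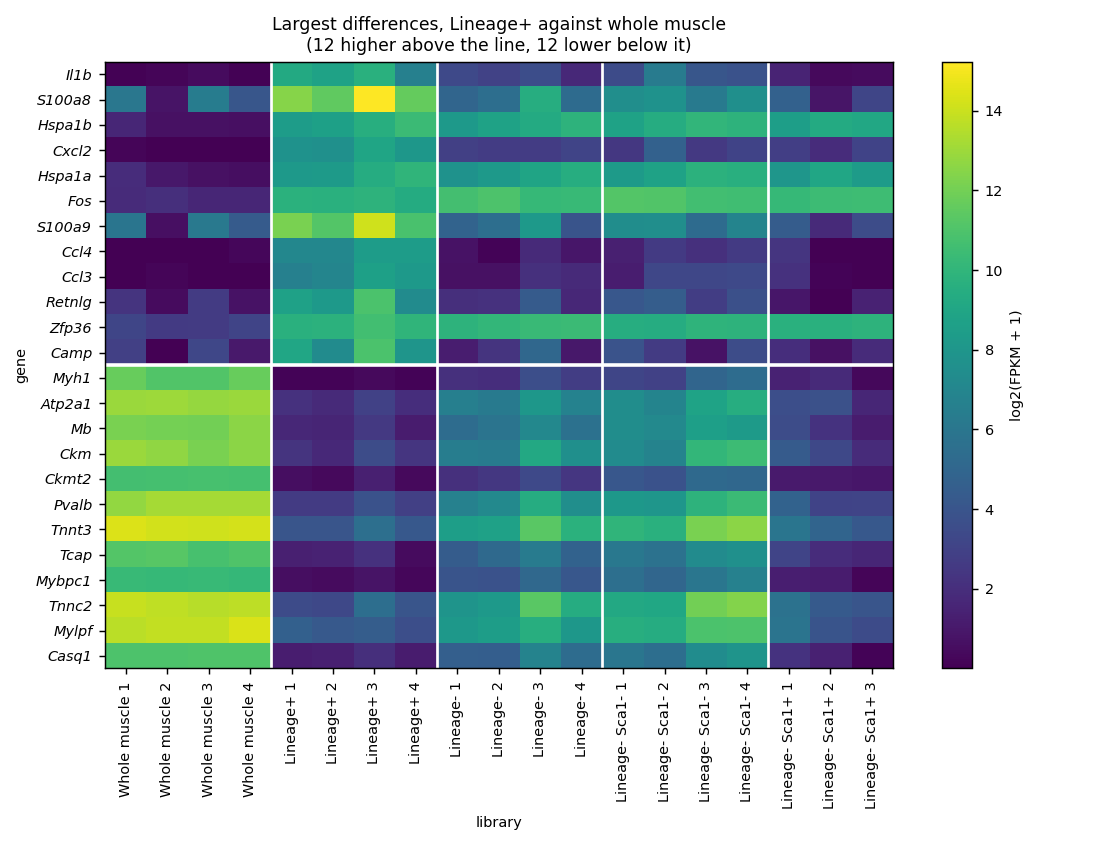
Colour gives log2(FPKM + 1) of the 12 genes with the largest differences in each direction (rows) in all 19 libraries (columns), with white lines between groups. The 12 lower genes are fibre genes that are bright in whole muscle and intermediate in Lineage- and Lineage- Sca1- libraries. Of the 12 higher genes, Fos, Zfp36, Hspa1a and Hspa1b are also high in the 3 lineage-negative groups, while the chemokines Ccl3 and Ccl4 and the neutrophil genes are highest in Lineage+ libraries.

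Endothelial transcripts rose in Lin+ cells in every vessel class except the lymphatic one, where members split. All 20 pan-endothelial genes rose (median 2.81), against 48.8% of all genes. Emcn, the endothelial sialomucin endomucin, was 12.03, 12.6, 16.3 and 15.2 FPKM in whole muscle and 135, 224, 105 and 292 FPKM in Lin+ (log2 difference 3.56, SE 0.35, adjusted p = 4.74e-08). Eltd1 and Gpr116, adhesion receptors of endothelium, averaged 12.7 ± 2.69 and 18.6 ± 1.27 FPKM in whole muscle and 154 ± 44.2 and 210.2 ± 61.2 FPKM in Lin+. Sox18, a transcription factor of developing vessels, was 6.35, 4.25, 4.82 and 3.52 FPKM in whole muscle and 42.3, 38.7, 51.4 and 119 FPKM in Lin+ (log2 difference 3.34, SE 0.39, adjusted p = 4.06e-07). Lin+ replicate 4 was the highest for Emcn and Sox18, and no library of one group reached the range of the other for either gene. As a share of summed FPKM, the pan-endothelial list held 0.0472 to 0.0551% in whole muscle and 0.224 to 0.795% in Lin+, with replicate 3 at the lower end.

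Of 12 capillary genes 11 rose (median 2.71), and the member not called was Lpl, lipoprotein lipase. Fabp4, a fatty-acid carrier of capillary endothelium and adipocytes, was 829, 533, 594 and 368 FPKM in whole muscle and 4871, 6346, 3855 and 13419 FPKM in Lin+ (log2 difference 3.50, SE 0.47, adjusted p = 2.27e-06). Car4, a carbonic anhydrase on the capillary surface, was 6.36, 5.27, 4.75 and 2.76 FPKM in whole muscle and 64.3, 73.97, 47.8 and 73.9 FPKM in Lin+ (log2 difference 3.53, SE 0.45, adjusted p = 1.23e-06). Neither gene overlapped between the groups. Tcf15, a transcription factor tied to fatty-acid uptake in heart and muscle endothelium, averaged 6.38 ± 2.97 and 88.8 ± 62.6 FPKM, and Fabp5, a second fatty-acid carrier, 17.9 ± 2.67 and 165 ± 77.95 FPKM. Gpihbp1, the capillary anchor of lipoprotein lipase, named after its values were seen, averaged 38.5 ± 8.38 FPKM in whole muscle and 268 ± 129.9 FPKM in Lin+ (log2 difference 2.63, SE 0.44, adjusted p = 3.02e-05).

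Arterial genes rose in 10 of 11 cases and venous or activated endothelial genes in 9 of 10, against 48.8% of all genes. The medians were 1.82 and 1.55, and the other member of each list was not called. Against Lin-, 9 arterial genes were higher in Lin+ and 1 lower, and 6 venous genes were higher and 3 lower. The venous list held on average 0.00632% of summed FPKM in whole muscle, 0.0315% in Lin+ and 0.0349% in Lin-. Hey1, a Notch target of arteries, was 1.96, 1.52, 1.68 and 1.99 FPKM in whole muscle and 32.8, 42.95, 16.4 and 37.5 FPKM in Lin+ (log2 difference 3.51, SE 0.26, adjusted p = 1.03e-09). Dll4, an arterial Notch ligand, was 2.63, 3.79, 2.64 and 2.51 FPKM in whole muscle and 31.9, 33.3, 18.6 and 46.6 FPKM in Lin+ (log2 difference 3.05, SE 0.25, adjusted p = 3.56e-09). For both, the lowest Lin+ library lay above the highest whole-muscle library. Sox17 and Efnb2, further arterial genes, averaged 2.31 ± 0.597 and 3.67 ± 0.737 FPKM in whole muscle and 37.2 ± 19.97 and 35.6 ± 13.5 FPKM in Lin+. On the venous side, Plvap, the diaphragm protein of fenestrated and venous vessels, averaged 5.999 ± 0.509 and 29.2 ± 11.7 FPKM, Selp, P-selectin, 0.504 ± 0.0881 and 4.57 ± 0.834 FPKM, and Ephb4, the venous ephrin receptor, 4.03 ± 0.774 and 17.7 ± 11.1 FPKM. Vwf, the von Willebrand factor stored by endothelium and platelets, was 3.73, 3.72, 2.89 and 4.53 FPKM in whole muscle and 22.1, 19.6, 5.28 and 8.84 FPKM in Lin+ (log2 difference 1.48, SE 0.31, adjusted p = 0.000278). Icam1, an adhesion molecule induced on activated endothelium, averaged 1.38 ± 0.104 FPKM in whole muscle, 25.1 ± 9.705 FPKM in Lin+ and 18.7 ± 8.16 FPKM in Lin-. Its difference from whole muscle was called (3.38, adjusted p = 2.37e-08), and that from Lin- was not (0.43, adjusted p = 0.291) but was with the replicate number as a block (adjusted p = 0.0123).

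Lymphatic genes were mixed, with 3 of 6 higher and 1 lower (median 0.62), near the 48.8% and 22.9% of all genes. Lyve1, a hyaluronan receptor that lymphatic vessels and some tissue macrophages carry, was 3.12, 4.33, 3.87 and 3.89 FPKM in whole muscle and 67.03, 64.2, 90.97 and 205 FPKM in Lin+ (log2 difference 4.32, SE 0.31, adjusted p = 6.01e-10). Flt4, the lymphatic receptor of VEGF-C, averaged 1.34 ± 0.258 and 8.74 ± 3.19 FPKM, and Mmrn1, a multimerin, 0.753 ± 0.134 and 2.75 ± 0.532 FPKM. Prox1, the factor that specifies lymphatic endothelium, was 0.259, 0.224, 0.0508 and 0.375 FPKM in whole muscle and 0.348, 0.209, 0.2205 and 0.183 FPKM in Lin+, with the groups overlapping (log2 difference 0.020, SE 0.23, adjusted p = 0.944). Pdpn, podoplanin, which fibroblasts also carry, was 5.598, 6.398, 6.13 and 6.63 FPKM in whole muscle and 3.56, 4.22, 5.19 and 3.37 FPKM in Lin+ (log2 difference -0.51, SE 0.17, adjusted p = 0.0118). Pdpn was the member that fell, it averaged 92.9 ± 21.2 FPKM in Lin-, and its call was lost when Lin+ replicates 3 and 4 alone were used.

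Blood-derived cell types rose list by list. All 20 macrophage and monocyte genes rose (median 4.51), and the list held 0.0304 to 0.0515% of summed FPKM in whole muscle and 1.17 to 1.89% in Lin+. Csf1r, the receptor on which macrophages depend for survival, was 5.82, 7.13, 7.83 and 9.42 FPKM in whole muscle and 220, 184, 122 and 189 FPKM in Lin+ (log2 difference 4.38, SE 0.26, adjusted p = 5.14e-11). Ctss, the lysosomal protease cathepsin S, was 8.899, 9.097, 9.24 and 11.3 FPKM in whole muscle and 487, 462, 897 and 709 FPKM in Lin+ (log2 difference 5.86, SE 0.42, adjusted p = 6.19e-10). Each Lin+ library exceeded each whole-muscle library for both genes. Ccr2, the receptor that recruits monocytes, averaged 2.87 ± 0.545 and 128 ± 44.4 FPKM, Cd14, a lipopolysaccharide co-receptor, 1.68 ± 0.273 and 114 ± 16.8 FPKM, and Emr1 (F4/80) 2.33 ± 0.795 and 81.8 ± 18.1 FPKM. The lysozymes Lyz1 and Lyz2, which are near-identical copies and may share reads, averaged 459 ± 163 and 2794 ± 1075 FPKM in Lin+ and 9.62 ± 4.99 and 83.9 ± 21.6 FPKM in whole muscle.

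Genes of dendritic cells and MHC class II presentation rose in 14 of 14 cases (median 4.10), against 48.8% of all genes. Of these, 6 passed the filter only through Lin+ libraries, which fixed their direction. H2-Aa, the alpha chain of a class II molecule, was 24.4, 35.9, 37.02 and 49.9 FPKM in whole muscle and 1859, 1817, 3293 and 2653 FPKM in Lin+ (log2 difference 5.99, SE 0.60, adjusted p = 4.89e-08). Its partner chain H2-Ab1 averaged 18.2 ± 3.25 and 1972 ± 1385 FPKM, and the invariant chain Cd74 57.98 ± 13.8 and 2943 ± 442 FPKM. Cd209a, a lectin of monocyte-derived dendritic cells, was 0.687, 1.07, 1.06 and 0.298 FPKM in whole muscle and 66.3, 72.1, 190.4 and 172 FPKM in Lin+ (log2 difference 6.01, SE 0.34, adjusted p = 2.03e-11). For H2-Ab1 and Cd209a, Lin+ replicates 3 and 4 stood above replicates 1 and 2.

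Neutrophil genes showed the widest spread among Lin+ libraries. All 14 rose (median 5.30), and the list held 1.18 to 13.03% of summed FPKM in Lin+ and 0.00103 to 0.0423% in whole muscle. S100a8, a calcium-binding alarmin of neutrophil cytosol, was 65.6, 0.724, 83.7 and 16.1 FPKM in whole muscle and 5591, 2903, 38348 and 3129.6 FPKM in Lin+ (log2 difference 8.36, SE 1.21, adjusted p = 5.63e-06). S100a9, its partner, was 60.3, 0.522, 71.3 and 19.7 FPKM in whole muscle and 4652, 2316, 18061 and 1829 FPKM in Lin+ (log2 difference 7.81, SE 1.10, adjusted p = 4.31e-06). Lin+ replicate 3 was far above the other 3 for both genes, and whole muscle replicate 2 far below its group. Camp, a granule antimicrobial peptide, was 6.49, 0.001, 8.57 and 1.097 FPKM in whole muscle and 522, 159.6, 1935 and 247 FPKM in Lin+ (log2 difference 7.0, SE 0.96, adjusted p = 3.01e-06), and Retnlg, a resistin-like gene of neutrophils, averaged 2.54 ± 2.42 and 701 ± 825 FPKM.

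Lymphocyte and mast cell genes were higher in Lin+, but the filter fixed the direction of many members. Through Lin+ libraries alone passed 11 of 14 T and NK cell, 5 of 10 B cell and 3 of 9 mast cell members. T and NK cell genes were higher in 14 of 14 cases (median 2.10), B cell genes in 10 of 10 (median 2.30) and mast cell genes in 9 of 9 (median 4.03). Gzma, a granzyme of killer cells, was 0.001, 0.122, 0.001 and 0.001 FPKM in whole muscle, where 0.001 is the lowest value listed, and 30.9, 35.3, 34.99 and 7.15 FPKM in Lin+ (log2 difference 4.55, SE 0.42, adjusted p = 1.8e-08). Cd79b, a signalling chain of the B cell receptor, was 0.399, 0.0851, 0.773 and 0.189 FPKM in whole muscle and 23.2, 15.4, 20.2 and 8.07 FPKM in Lin+ (log2 difference 3.64, SE 0.39, adjusted p = 1.39e-07). Lin+ replicate 4 was the lowest of its group for both genes. Cpa3, the carboxypeptidase of mast cell granules, was 3.33, 3.15, 4.35 and 2.14 FPKM in whole muscle and 156, 312, 127 and 265 FPKM in Lin+ (log2 difference 5.60, SE 0.65, adjusted p = 3.79e-07), and Mcpt4, a mast cell protease, averaged 7.63 ± 1.75 and 307 ± 149.7 FPKM. Among further members, the adhesion receptor Cd2 averaged 0.417 ± 0.351 and 25.1 ± 12.4 FPKM, and the cytokine receptor Il7r 0.0562 ± 0.0163 and 7.64 ± 4.22 FPKM.

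Red cell and platelet genes were less uniform. Of 4 erythroid genes tested 2 rose, near the 48.8% of all genes. The beta globin entry Beta-s was 439, 253, 526 and 276 FPKM in whole muscle and 3584, 2680.2, 1661 and 14466 FPKM in Lin+ (log2 difference 3.45, SE 1.11, adjusted p = 0.00958), and the division of reads among globin copies is uncertain. Alas2, the haem synthesis enzyme of red cell precursors, averaged 4.36 ± 2.02 and 24.5 ± 15.4 FPKM (log2 difference 2.05, SE 0.66, adjusted p = 0.00982), and its call was lost with Lin+ replicates 3 and 4 alone. Slc4a1, the anion exchanger of red cells, was not called (0.11 on the log2 scale, adjusted p = 0.849). Of 6 platelet genes 4 rose, against the same 48.8%. Pf4, platelet factor 4, was 14.5, 12.3, 12.9 and 11.5 FPKM in whole muscle and 238, 229.7, 735 and 2582 FPKM in Lin+ (log2 difference 5.37, SE 0.65, adjusted p = 5.83e-07), with replicate 4 highest. Ppbp, a second platelet chemokine, averaged 1.06 ± 0.453 and 8.81 ± 3.701 FPKM. The platelet integrin genes Itga2b and Itgb3 averaged 1.23 ± 0.882 and 2.55 ± 1.53 FPKM in Lin+ and 0.213 ± 0.104 and 0.6003 ± 0.121 FPKM in whole muscle, and both calls were lost with Lin+ replicates 3 and 4 alone.

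**Figure D3:**
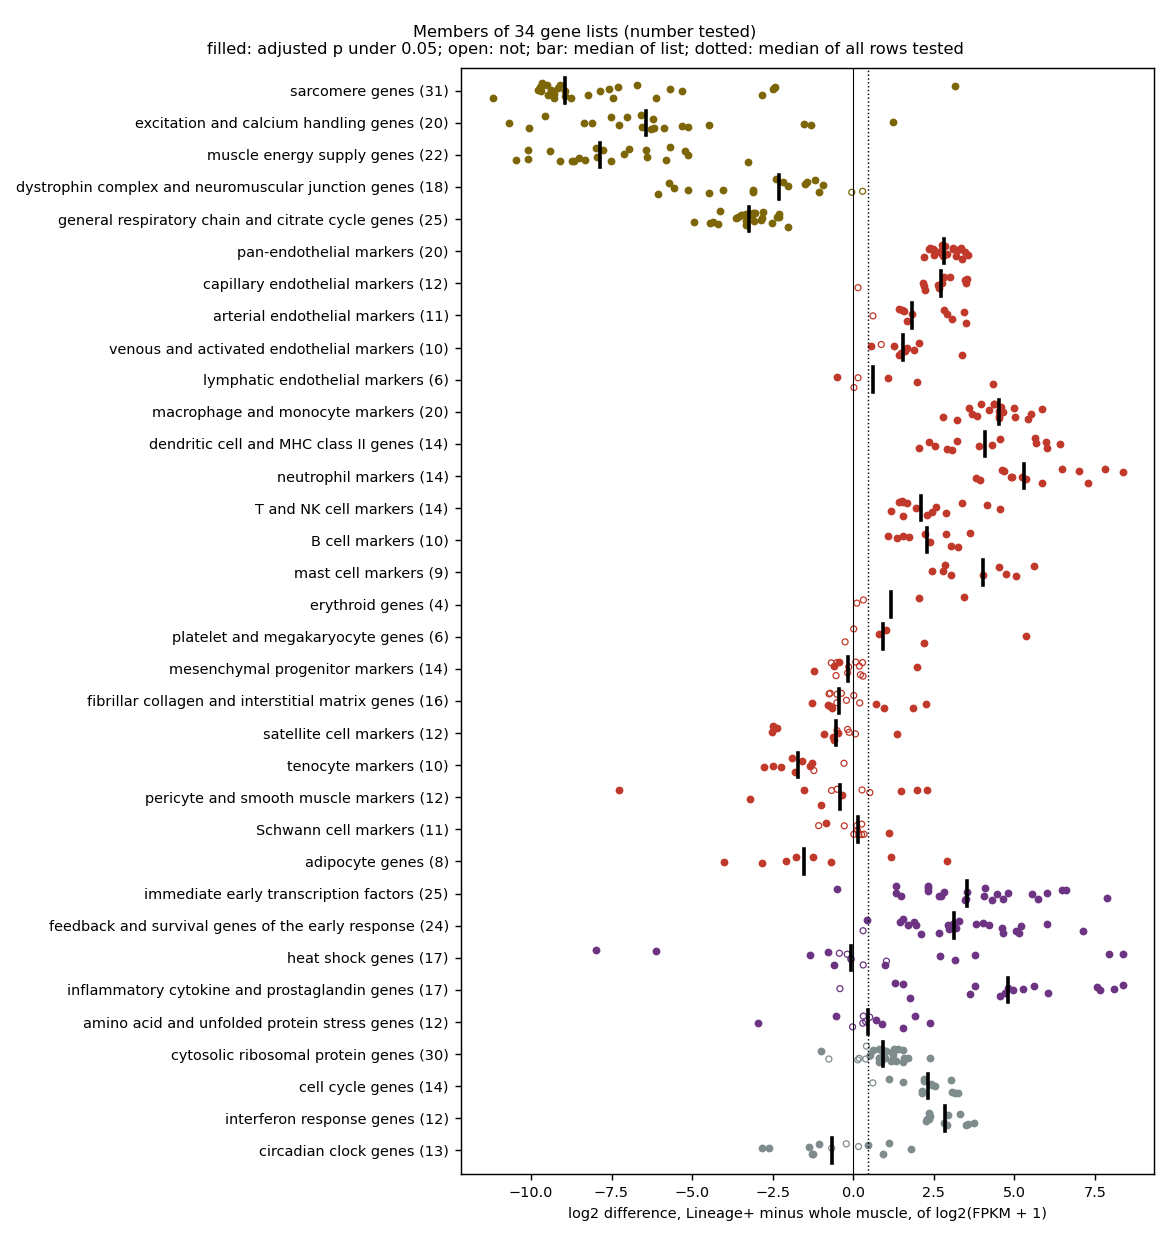
Each point is the log2 difference of 1 gene, Lineage+ minus whole muscle, for the members of 34 lists, filled where called, with a bar at the median of the list and a dotted line at 0.45, the median of all genes tested. Fibre lists lie far to the left, endothelial and blood lists to the right, stromal lists near the dotted line or left of it, and early response lists to the right except for heat shock and protein stress genes, which lie on both sides.

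Genes of stromal cells, which are outside the populations named for the Lin+ fraction, moved in both directions against whole muscle and were lower in Lin+ than in Lin- throughout the progenitor and matrix lists. Of 14 mesenchymal progenitor genes 1 rose and 3 fell against whole muscle (median -0.16), beside 48.8% and 22.9% of all genes. All 14 were lower than in Lin- (median -4.59). After median-of-ratios scaling 8 of them were lower than in whole muscle, and 5 with Lin+ replicates 3 and 4 alone. Pdgfra, the growth factor receptor that marks these progenitors, was 6.895, 5.87, 8.03 and 6.57 FPKM in whole muscle and 6.304, 5.31, 4.96 and 2.95 FPKM in Lin+ (log2 difference -0.44, SE 0.19, adjusted p = 0.0397). Pdgfra averaged 105 ± 23.7 FPKM in Lin-, the groups overlapped between Lin+ and whole muscle, and the call was lost with Lin+ replicates 1 and 2 alone. It was also lost on leaving out Lin+ replicate 3 or 4 or whole muscle replicate 1, 3 or 4 (adjusted p = 0.0532 to 0.175), and the difference was -0.26 without Lin+ replicate 4. Dpp4, a peptidase of adventitial progenitors that some lymphocytes also carry, was the member that rose, from 1.900 ± 0.209 to 10.8 ± 4.55 FPKM (log2 difference 1.96, SE 0.23, adjusted p = 3.6e-07). Lum, the proteoglycan lumican, fell from 52.7 ± 14.4 to 22.5 ± 7.0 FPKM (log2 difference -1.22, SE 0.25, adjusted p = 0.00028), and Mfap5, a microfibril protein, from 24.5 ± 1.89 to 15.98 ± 2.54 FPKM (log2 difference -0.60, SE 0.18, adjusted p = 0.00553). Clec3b, a secreted lectin of progenitors, averaged 22.4 ± 5.31 and 15.3 ± 8.88 FPKM and was not called (adjusted p = 0.138), but was lower with Lin+ replicates 3 and 4 alone (-1.37, adjusted p = 0.00838), without Lin+ replicate 1 (log2 difference -0.99, adjusted p = 0.0366) and after median-of-ratios scaling (-1.27, adjusted p = 0.00647).

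Of 16 collagen and interstitial matrix genes 4 rose and 4 fell, against 48.8% and 22.9% of all genes. After median-of-ratios scaling 2 rose and 9 fell, against 36.8% and 34.4%. Fn1, fibronectin, was 21.8, 24.2, 21.7 and 42.7 FPKM in whole muscle and 129.7, 106, 204 and 102 FPKM in Lin+ (log2 difference 2.25, SE 0.24, adjusted p = 9.85e-08). Eln, elastin, averaged 4.82 ± 1.33 and 19.96 ± 4.38 FPKM (log2 difference 1.85, SE 0.27, adjusted p = 5.26e-06). Sparc, a collagen-binding glycoprotein, and Col14a1, a fibril-associated collagen, were the other members called higher (0.94 and 0.71), and both calls were lost after median-of-ratios scaling. That of Sparc was also lost with Lin+ replicates 3 and 4 alone (adjusted p = 0.0659). Mfap4, a microfibril protein, averaged 10.7 ± 4.36 and 3.71 ± 1.14 FPKM (log2 difference -1.28, SE 0.35, adjusted p = 0.00318). All 16 members were lower in Lin+ than in Lin- (median -4.43).

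Satellite cell, tenocyte, pericyte and Schwann cell genes varied by list. Of 12 satellite cell genes 7 fell and 1 rose (median -0.55), against 22.9% and 48.8% of all genes, and 5 fell with Lin+ replicates 1 and 2 alone. Myod1, the myogenic factor of activated satellite cells, was 6.83, 4.298, 3.803 and 6.07 FPKM in whole muscle and 0.0838, 0.172, 0.0608 and 0.0252 FPKM in Lin+ (log2 difference -2.50, SE 0.26, adjusted p = 8.85e-08). Pax7, the factor that defines satellite cells, was 0.4504, 0.651, 0.835 and 0.773 FPKM in whole muscle and 0.313, 0.356, 0.0627 and 0.0104 FPKM in Lin+, with Lin+ replicates 3 and 4 near 0. Every Lin+ value was below every whole-muscle value, and Pax7 was not called (adjusted p = 0.268), but was lower with a pseudocount of 0.1 (-1.66, adjusted p = 0.012) and in a fit of Lin+ and whole muscle only (-0.51, adjusted p = 0.00462). Cdh15, M-cadherin, averaged 4.82 ± 1.18 and 0.111 ± 0.0481 FPKM, and Itga7, the laminin receptor of fibres and satellite cells, 18.2 ± 2.65 and 2.605 ± 1.67 FPKM. Sdc4, a proteoglycan that many cell types carry, was the member that rose (log2 difference 1.37, SE 0.22, adjusted p = 2.29e-05). Of 10 tenocyte genes 8 fell and the other 2 were not called, and 6 fell with Lin+ replicates 3 and 4 alone. Fmod, fibromodulin of tendon, was 76.8, 120.2, 88.1 and 124 FPKM in whole muscle and 19.96, 18.7, 7.43 and 12.6 FPKM in Lin+ (log2 difference -2.78, SE 0.29, adjusted p = 8.16e-08), and Tnmd, tenomodulin, averaged 29.7 ± 11.9 and 7.06 ± 1.698 FPKM.

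Of 12 pericyte and smooth muscle genes 3 rose and 5 fell, against 48.8% and 22.9% of all genes, and 3 fell with Lin+ replicates 1 and 2 alone. Acta2, the smooth muscle actin, was 20.4, 25.7, 20.2 and 30.01 FPKM in whole muscle and 88.1, 72.7, 332 and 99.9 FPKM in Lin+ (log2 difference 2.30, SE 0.48, adjusted p = 0.000316). Myh11, the smooth muscle myosin, was 9.29, 9.12, 7.197 and 9.58 FPKM in whole muscle and 30.2, 26.1, 93.7 and 25.6 FPKM in Lin+ (log2 difference 1.97, SE 0.46, adjusted p = 0.000937). Lin+ replicate 3 was the highest of its group for both genes, and in Lin- they averaged 626 ± 215 and 175 ± 63.7 FPKM. Tagln, transgelin, also rose (1.47, adjusted p = 0.00447), and its call was lost after median-of-ratios scaling. The members that fell include Des, desmin, which fibres hold in large amounts (1069.9 ± 155 and 6.13 ± 1.76 FPKM), and Abcc9, a potassium channel subunit of pericytes and muscle (45.3 ± 3.57 and 4.16 ± 1.32 FPKM). Of 11 Schwann cell genes 1 rose and 1 fell, the latter 3 after median-of-ratios scaling. Pmp22, a myelin protein that other cells also make, rose (log2 difference 1.11, SE 0.20, adjusted p = 5.71e-05), and Prx, periaxin, fell (log2 difference -0.85, SE 0.36, adjusted p = 0.0437), a call lost with Lin+ replicates 1 and 2 alone and on leaving out Lin+ replicate 3 or 4 or any whole-muscle library (adjusted p = 0.059 to 0.132).

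Of 8 adipocyte genes tested 6 fell and 2 rose, against 22.9% and 48.8% of all genes. Adipoq, the adipocyte hormone adiponectin, was 7.26, 7.498, 11.04 and 15.2 FPKM in whole muscle and 0.438, 0.405, 0.384 and 0.992 FPKM in Lin+ (log2 difference -2.82, SE 0.35, adjusted p = 1.02e-06). Cfd, adipsin, averaged 26.3 ± 8.52 and 0.658 ± 0.371 FPKM, and Retn, resistin, 4.08 ± 1.24 and 0.191 ± 0.261 FPKM. Pparg, the lipid-sensing nuclear receptor that endothelium and macrophages also carry, was 2.63, 1.65, 3.797 and 3.41 FPKM in whole muscle and 26.6, 25.8, 22.3 and 37.3 FPKM in Lin+ (log2 difference 2.91, SE 0.20, adjusted p = 3.59e-10). Lipe, hormone-sensitive lipase, was the other member that rose (1.18, adjusted p = 0.000851).

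Genes of the immediate early response were at low levels in whole muscle and at high levels in Lin+ cells. Of 25 transcription factors in this list 24 rose and 1 fell (median 3.52), against 48.8% and 22.9% of all genes. Fos, a subunit of the AP-1 factor, was 2.604, 3.22, 2.08 and 2.099 FPKM in whole muscle and 840.1, 812, 935 and 665 FPKM in Lin+ (log2 difference 7.86, SE 0.21, adjusted p = 4.04e-15). Egr1, a zinc-finger factor induced within minutes, was 3.58, 4.01, 3.19 and 1.91 FPKM in whole muscle and 325, 333, 227 and 198 FPKM in Lin+ (log2 difference 6.02, SE 0.20, adjusted p = 3.68e-14). All 4 Lin+ libraries lay far above every whole-muscle library for both genes, a lack of overlap being a condition of the choice of Fos. Fosb, a relative of Fos, averaged 0.1905 ± 0.151 and 121 ± 41.4 FPKM, and Atf3, a stress-induced factor, 6.87 ± 2.33 and 352 ± 58.9 FPKM. Junb, another AP-1 subunit, was 2.93, 0.687, 0.359 and 0.412 FPKM in whole muscle and 96.5, 62.1, 393 and 329 FPKM in Lin+ (log2 difference 6.48, SE 0.65, adjusted p = 5.01e-08), with replicates 3 and 4 above replicates 1 and 2. The member that fell was Bhlhe40, a factor that also belongs to the clock, at 54.3 ± 3.13 and 38.4 ± 8.73 FPKM (log2 difference -0.52, SE 0.18, adjusted p = 0.0164), and this call was lost with Lin+ replicates 1 and 2 alone and without Lin+ replicate 4 (adjusted p = 0.126 and 0.0731). Egr1, Atf3 and Junb were named after their values were seen.

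Feedback and survival genes, which are induced with the early factors and limit the response, rose in 23 of 24 cases (median 3.13), with 21 higher after median-of-ratios scaling. Zfp36, which promotes decay of cytokine messages, was 8.13, 5.03, 5.14 and 7.76 FPKM in whole muscle and 819, 883, 1559.5 and 1008 FPKM in Lin+ (log2 difference 7.13, SE 0.23, adjusted p = 1.59e-14). Dusp1, a phosphatase that inactivates MAP kinases, was 14.5, 23.3, 18.5 and 23.9 FPKM in whole muscle and 730.1, 632, 794 and 887 FPKM in Lin+ (log2 difference 5.19, SE 0.18, adjusted p = 4.07e-14). No library of one group reached the other, which was a condition of the choice of Zfp36. Nfkbiz, a nuclear regulator of NF-kB target genes, averaged 0.868 ± 0.0909 and 125 ± 45.3 FPKM, and Socs3, an inhibitor of cytokine receptor signalling, 1.78 ± 0.277 and 97.4 ± 8.71 FPKM. The member not called was Spry2, an inhibitor of growth factor signalling, at 5.71 ± 0.431 and 7.32 ± 1.100 FPKM (log2 difference 0.30, SE 0.17, adjusted p = 0.125). In Lin-, Spry2 averaged 51.9 ± 10.4 FPKM.

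Inflammatory cytokine and prostaglandin genes rose in 16 of 17 cases (median 4.81). Il1b, interleukin 1 beta of myeloid cells, was 0.0709, 0.152, 0.344 and 0.0844 FPKM in whole muscle and 598, 429, 819 and 99.1 FPKM in Lin+ (log2 difference 8.36, SE 0.62, adjusted p = 8.21e-10). Cxcl2, a chemokine that draws neutrophils, was 0.135, 0.001, 0.001 and 0.001 FPKM in whole muscle and 219, 202, 503 and 267 FPKM in Lin+ (log2 difference 8.08, SE 0.39, adjusted p = 3.28e-12). Ccl3 and Ccl4, chemokines of macrophages, averaged 232 ± 149 and 233 ± 119 FPKM in Lin+ and were listed at 0.001 in 3 of 4 whole-muscle libraries each. The macrophage list held 1.17 to 1.89% of summed FPKM in Lin+ and 0.0304 to 0.0515% in whole muscle, the neutrophil list 1.18 to 13.03% and 0.00103 to 0.0423%, and their part in the cytokine result was not tested. Il1b was lowest in Lin+ replicate 4, where the neutrophil and macrophage lists were also lowest. Cxcl2, Ccl3 and Ccl4 were not lowest there, at 267, 307 and 336 FPKM. The member not called was Hbegf, an epidermal growth factor receptor ligand (log2 difference -0.41, SE 0.26, adjusted p = 0.154), which was lower with Lin+ replicates 3 and 4 alone (-0.84, adjusted p = 0.0119), without Lin+ replicate 2 (-0.60, adjusted p = 0.0476) and after median-of-ratios scaling (-0.98, adjusted p = 0.00101).

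Promoters of 3 early response genes are shown because each holds an element known from inducible genes. These are a CArG box in Zfp36, a cyclic AMP response element (CRE, searched as TGACGTCA) in Dusp1 and an NF-kB site in Cxcl2. Each window is the 250 bases before the start in GRCm38.p6 from the RefSeq promoter table, written 5′ to 3′ along the gene, with the match in capitals. Zfp36 lies at chr7:28379229-28379478 on the minus strand with its match 58 to 49 bases before the start. Dusp1 lies at chr17:26508473-26508722 on the minus strand with its match 143 to 136 bases before the start. Cxcl2 lies at chr5:90903649-90903898 on the plus strand with its match 97 to 88 bases before the start.
Zfp36: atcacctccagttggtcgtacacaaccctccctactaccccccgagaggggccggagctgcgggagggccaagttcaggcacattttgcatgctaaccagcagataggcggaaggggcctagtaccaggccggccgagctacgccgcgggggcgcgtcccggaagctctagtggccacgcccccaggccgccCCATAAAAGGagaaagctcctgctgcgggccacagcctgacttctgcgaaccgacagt
Dusp1: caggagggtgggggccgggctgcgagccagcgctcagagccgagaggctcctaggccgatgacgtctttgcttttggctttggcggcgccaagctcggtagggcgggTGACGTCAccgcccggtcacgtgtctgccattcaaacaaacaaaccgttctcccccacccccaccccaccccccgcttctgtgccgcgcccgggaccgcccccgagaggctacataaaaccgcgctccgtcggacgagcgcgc
Cxcl2: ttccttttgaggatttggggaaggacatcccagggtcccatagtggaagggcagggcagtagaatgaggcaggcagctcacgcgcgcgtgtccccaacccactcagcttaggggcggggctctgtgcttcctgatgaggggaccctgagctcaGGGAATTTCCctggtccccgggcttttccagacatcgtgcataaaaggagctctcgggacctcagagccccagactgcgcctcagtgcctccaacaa
Windows from 250 bases before to 50 after the start were searched on both strands. A CRE was found in 4 of 21 feedback genes with a promoter in the table and in 2.03% of all genes with a promoter. It was also found in 3 of 15 general respiratory genes, which fell, and in 3 of 21 ribosomal protein genes. A CArG box was found in 2 of the 21 feedback genes, 1 of 18 immediate early factors and 1.81% of all genes with a promoter. An NF-kB site was found in 5 of 13 inflammatory genes, which were Csf1, Il6, Cxcl1, Cxcl2 and Cxcl10, and in 6.55% of all genes with a promoter. It was also found in 3 of 8 pericyte and smooth muscle genes, while 11 T and NK cell genes held neither a CRE nor an NF-kB site. The lists are short, and shares of this size were not limited to the response lists. None of the matches shown overlapped another of these motifs.

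Some heat shock genes rose and others fell. Of 17 tested 6 rose and 5 fell (median -0.069), against 48.8% and 22.9% of all genes, and 5 and 9 after median-of-ratios scaling. With Lin+ replicates 3 and 4 alone 3 fell. Hspa1b, an inducible HSP70, was 2.07, 0.605, 0.596 and 0.524 FPKM in whole muscle and 339.7, 402, 747 and 1344 FPKM in Lin+ (log2 difference 8.36, SE 0.42, adjusted p = 4.47e-12). Hspa1a, its near-identical neighbour on chromosome 17, was 2.900, 0.962, 0.637 and 0.489 FPKM in whole muscle and 289, 316, 692 and 1013 FPKM in Lin+ (log2 difference 7.92, SE 0.47, adjusted p = 3.47e-11), and the division of reads between the copies is uncertain. Lin+ replicates 3 and 4 were above replicates 1 and 2 for both. Dnajb1, an HSP70 co-chaperone, averaged 3.09 ± 0.593 and 55.5 ± 11.96 FPKM, Hsp90aa1, the inducible HSP90, 25.3 ± 3.63 and 233 ± 28.6 FPKM, and Dnaja1, another co-chaperone, 10.5 ± 1.28 and 76.2 ± 29.9 FPKM. Hspa5, the chaperone of the endoplasmic reticulum, also rose (0.99), a call lost after median-of-ratios scaling. Hspa8, the constitutive HSP70, was 907, 879, 871 and 861 FPKM in whole muscle and 974, 1033, 1221 and 1142 FPKM in Lin+ and was not called (adjusted p = 0.199).

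The heat shock genes that fell include those that fibres hold at high levels. Hspb7, a small heat shock protein of striated muscle, was 414, 421, 448 and 216 FPKM in whole muscle and 0.547, 0.504, 0.613 and 0.164 FPKM in Lin+ (log2 difference -7.97, SE 0.27, adjusted p = 3.05e-14). Cryab, alpha B crystallin, was 1133, 952, 1041 and 668 FPKM in whole muscle and 9.39, 6.49, 21.98 and 17.5 FPKM in Lin+ (log2 difference -6.11, SE 0.42, adjusted p = 3.05e-10). Neither gene overlapped between the groups. The other members that fell were Hspd1, the mitochondrial HSP60 (-1.34), Bag3, a co-chaperone of the muscle Z disc (-0.77), and Dnajb4, a co-chaperone (-0.59). With Lin+ replicates 3 and 4 alone Bag3 and Dnajb4 were not called (adjusted p = 0.261 and 0.0604), and Bag3 lost its call without Lin+ replicate 1 or 2 or whole muscle replicate 1 (adjusted p = 0.0661 to 0.0709).

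Early factors and feedback genes were also high in the Lin- fraction. Per the labels Lin- cells were sorted like Lin+ cells, and their comparison with whole muscle uses the same 4 whole-muscle libraries, so the values are given side by side only. Early factors were higher than in whole muscle in 24 of 25 cases in Lin+ (median 3.52) and in 24 in Lin- (median 4.22), where 69.3% of all genes differed from whole muscle, 47.5% higher and 21.8% lower. Of the other response lists, feedback genes were higher in Lin- in 23 of 24 cases and inflammatory genes in 10 of 17, while heat shock genes were higher in 8 of 17 and lower in 4 (median 0.46), near the shares of all genes. Between Lin+ and Lin-, 2 early factors were higher in Lin+ and 10 lower (median -0.57), against 25.3% and 25.8% of all genes, and with the replicate number as a block 4 were higher and 15 lower. Fos averaged 813 ± 112 FPKM in Lin+ and 1526 ± 394 FPKM in Lin- (log2 difference -0.88, SE 0.21, adjusted p = 0.00195). Egr1 averaged 271 ± 68.3 FPKM in Lin+ and 1043 ± 145 FPKM in Lin- (log2 difference -1.97, SE 0.20, adjusted p = 1.61e-07). Atf3, Zfp36 and Hspa1b were not called between these fractions, with log2 differences of -0.0004, -0.13 and 0.22 and adjusted p of 1, 0.665 and 0.704. Dusp1 was higher in Lin+ (log2 difference 0.78, SE 0.18, adjusted p = 0.00124).

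**Figure D4:**
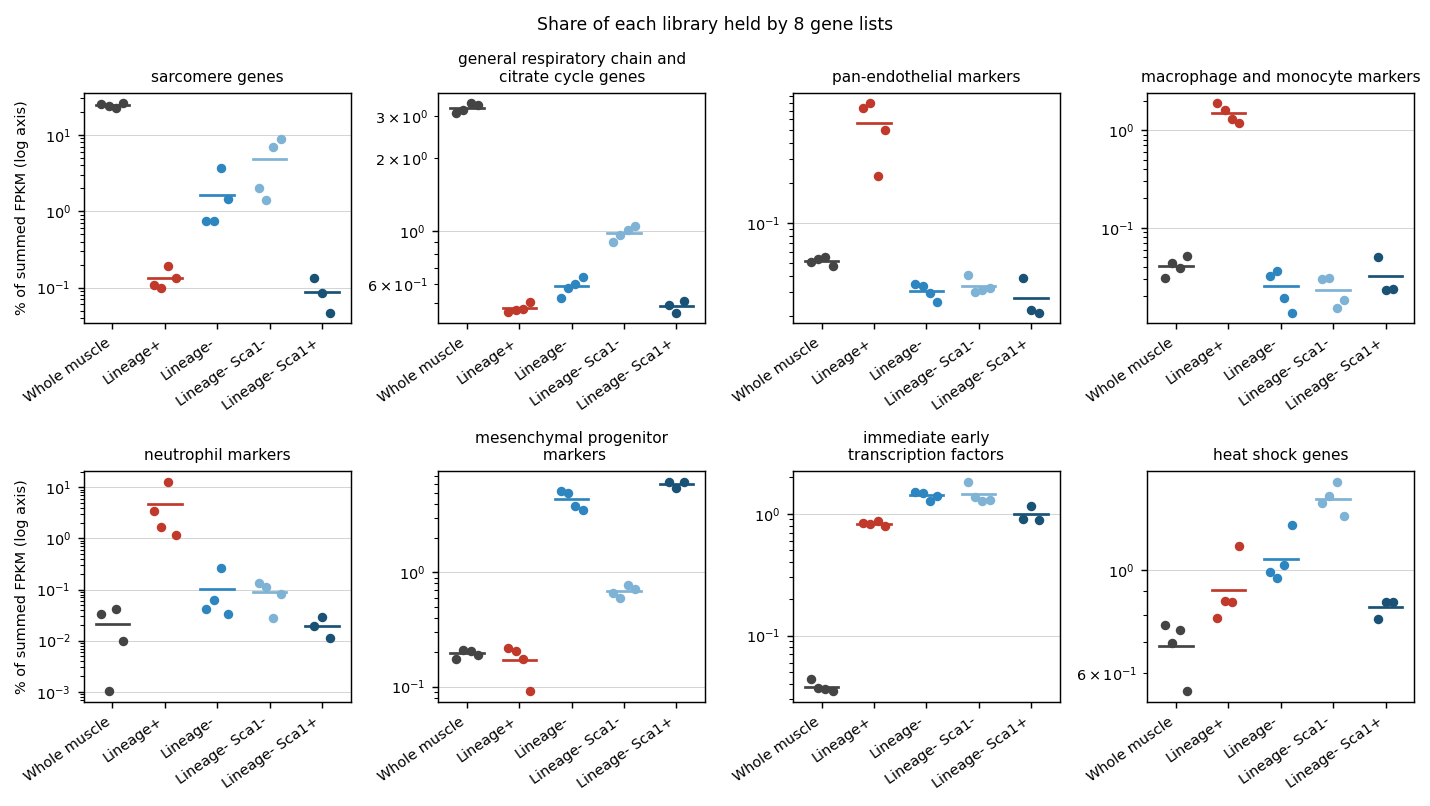
Share of summed FPKM held by 8 gene lists in each library, on log axes that differ between panels, with points for libraries and lines for group means. Sarcomere and respiratory genes are highest in whole muscle, endothelial, macrophage and neutrophil markers in Lineage+ cells and mesenchymal markers in Lineage- and Lineage- Sca1+ cells, while early factors are higher in all 4 sorted groups than in whole muscle.

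Inflammatory genes differed between the 2 sorted fractions in both directions. Of 17 tested, 8 were higher in Lin+ than in Lin- and 5 lower, against 25.3% and 25.8% of all genes. Il1b averaged 486 ± 304 FPKM in Lin+ and 7.46 ± 3.75 FPKM in Lin- (log2 difference 5.64, SE 0.62, adjusted p = 3.15e-07), and Ccl3 232 ± 149 and 1.79 ± 1.397 FPKM (log2 difference 6.28, SE 0.56, adjusted p = 2.24e-08). The 5 that were lower in Lin+ were Il6, Cxcl1, Csf1, Lif and Ptgs2, named after their values were seen. Il6, interleukin 6, averaged 0.187 ± 0.0613 FPKM in whole muscle, 14.2 ± 5.74 FPKM in Lin+ and 106 ± 24.6 FPKM in Lin- (log2 difference -2.87, SE 0.27, adjusted p = 4e-08 for Lin+ against Lin-). Cxcl1, a neutrophil-attracting chemokine, averaged 0.418 ± 0.308, 38.6 ± 21.1 and 378 ± 51.8 FPKM in the same order (log2 difference -3.38, SE 0.25, adjusted p = 1.7e-09). Csf1, the growth factor of macrophages, averaged 4.67 ± 0.351, 15.7 ± 3.15 and 76.8 ± 3.15 FPKM (log2 difference -2.24, SE 0.15, adjusted p = 4.88e-10). Its receptor gene Csf1r showed the opposite order of the sorted fractions, 179 ± 41.1 FPKM in Lin+ and 0.647 ± 0.131 FPKM in Lin-. Ptgs2, the inducible prostaglandin synthase, averaged 43.8 ± 25.2 FPKM in Lin+ and 75.2 ± 7.29 FPKM in Lin- (adjusted p = 0.0475, and 0.0896 with the replicate block, which ended the call), and the cytokine Lif 1.73 ± 0.5598 and 3.91 ± 1.04 FPKM (adjusted p = 0.000418).

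Of 12 amino acid and unfolded protein stress genes 5 rose and 2 fell, against 48.8% and 22.9% of all genes. Their median was 0.45, against 0.45 over all genes tested. Sdf2l1, an endoplasmic reticulum chaperone, averaged 2.01 ± 0.479 and 15.3 ± 5.197 FPKM (log2 difference 2.39, SE 0.43, adjusted p = 6.59e-05). Asns and Psat1, enzymes of asparagine and serine synthesis, averaged 1.18 ± 0.266 and 1.67 ± 0.414 FPKM in whole muscle and 5.34 ± 0.753 and 9.64 ± 4.44 FPKM in Lin+. Chac1, a glutathione-degrading enzyme, fell from 24.1 ± 10.04 to 1.98 ± 0.157 FPKM (log2 difference -2.95, SE 0.30, adjusted p = 6.99e-08), and Herpud1, a factor of protein quality control, from 72.9 ± 2.59 to 50.1 ± 3.997 FPKM (log2 difference -0.53, SE 0.13, adjusted p = 0.00113).

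The remaining lists held genes of general cell state. Cytosolic ribosomal protein genes rose in 22 of 30 cases and fell in 1 (median 0.93), but in 7 after median-of-ratios scaling. Rpl3, a large-subunit protein, averaged 65.9 ± 6.85 and 352 ± 79.3 FPKM (log2 difference 2.38, SE 0.27, adjusted p = 2.49e-07), and Rps2, the member that fell, 549.9 ± 68.5 and 278 ± 68.5 FPKM (log2 difference -1.01, SE 0.26, adjusted p = 0.0018). Pseudogene copies make the counting of ribosomal protein genes uncertain. Cell cycle genes rose in 13 of 14 cases (median 2.31), against 48.8% of all genes. Mki67, a marker of cycling cells, was 0.755, 0.226, 0.877 and 0.573 FPKM in whole muscle and 10.6, 7.91, 25.2 and 10.2 FPKM in Lin+ (log2 difference 3.06, SE 0.39, adjusted p = 1.05e-06). Top2a, the topoisomerase of dividing cells, averaged 0.745 ± 0.289 and 15.5 ± 7.93 FPKM, and Birc5, survivin, 0.614 ± 0.194 and 17.4 ± 14.4 FPKM. Lin+ replicate 3 was the highest for these genes.

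Interferon response genes rose in 12 of 12 cases (median 2.86), against 48.8% of all genes. In Lin-, 7 were higher than in whole muscle and 1 lower (median 1.04), against 47.5% and 21.8% of all genes. In Lin- Sca1+ cells the median difference of the list from whole muscle was 2.24, against 0.35 over all genes tested. In Lin- Sca1- cells it was 0.068, against 0.50 over all genes tested. Rsad2, the antiviral enzyme viperin, was 2.22, 1.33, 2.897 and 1.78 FPKM in whole muscle and 42.3, 43.4, 23.1 and 31.5 FPKM in Lin+ (log2 difference 3.54, SE 0.24, adjusted p = 2.67e-10). In Lin- it averaged 2.21 ± 0.6596 FPKM, close to whole muscle, and Lin+ stood above Lin- (log2 difference 3.47, SE 0.24, adjusted p = 6.33e-10). Mx1, an antiviral GTPase, averaged 0.238 ± 0.174, 13.1 ± 3.45 and 0.548 ± 0.349 FPKM in whole muscle, Lin+ and Lin-. Irf7, the factor that drives interferon genes, averaged 2.18 ± 0.752, 30.6 ± 6.02 and 9.802 ± 3.31 FPKM, and Oasl2, an interferon-induced oligoadenylate synthetase relative, 1.85 ± 0.236, 38.6 ± 14.5 and 13.3 ± 4.33 FPKM.

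Circadian clock genes moved in both directions. Of 13 tested 4 rose and 6 fell (median -0.67), against 48.8% and 22.9% of all genes. Dbp, an output factor of the clock, was 27.9, 34.4, 26.5 and 32.9 FPKM in whole muscle and 7.25, 4.44, 4.004 and 2.13 FPKM in Lin+ (log2 difference -2.60, SE 0.51, adjusted p = 0.000154). Tef, its relative, was 56.9, 78.5, 80.7 and 88.1 FPKM in whole muscle and 20.2, 18.7, 4.77 and 4.597 FPKM in Lin+ (log2 difference -2.82, SE 0.50, adjusted p = 6.3e-05), with Lin+ replicates 3 and 4 below replicates 1 and 2. Arntl (Bmal1), the activator of the opposite phase, rose from 2.79 ± 0.424 to 12.6 ± 4.05 FPKM (log2 difference 1.80, SE 0.20, adjusted p = 2.07e-07), and its partner Clock from 4.899 ± 0.6596 to 11.8 ± 2.68 FPKM (log2 difference 1.10, SE 0.20, adjusted p = 8.17e-05). Per3 fell (-1.39), while Npas2 and Per1 were called higher (0.47 and 0.93), and both of these calls were lost after median-of-ratios scaling, which left 2 members higher. Npas2 also lost its call with Lin+ replicates 1 and 2 alone (adjusted p = 0.102) and without Lin+ replicate 4 (adjusted p = 0.0525). Per1 lost its call with Lin+ replicates 3 and 4 alone (adjusted p = 0.195) and without Lin+ replicate 1 or whole muscle replicate 3 (adjusted p = 0.0639 and 0.0536). The time of day of collection is not stated in the labels.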

How the data were processed

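RNA of 19 libraries in 5 groups was measured, and 8 of them, 4 of each group, entered the comparison. Per the labels, sorted cells were lysed in RNAzol and stranded poly(A) libraries were made. The deposited values are FPKM per gene made by the authors, and the submitters' processing notes name bcl2fastq, TopHat2, Bowtie2, Cufflinks and mm10. The sources used here give neither their versions nor the annotation. Since FPKM are no counts, neither a count model nor a counting interval was used, and read depth is unknown. Of 23846 entries, 311 held status words (LOWDATA, FAIL, HIDATA) in every library and 14 in some, and both kinds were left out. The table also has 4 columns that match no sample, which were left aside.

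Values were taken as log2(FPKM + 1) and tested in 1 limma fit of all 5 groups, with moderated variances that follow a trend, two-sided, and with Benjamini-Hochberg adjustment. The test covered entries that reached 1 FPKM in 3 or more of the 19 libraries. Symbols listed more than once (252) were tested but not named. Deviations of same-numbered Lin+ and Lin- libraries correlated at 0.70, 0.58, 0.44, 0.63 (0.37 to 0.57 between replicates 1 and 2 or 3 and 4). For Lin+ replicates 2 and 3 the number thus added little beyond these pairs. A block was tried there too. Alternatives were pseudocounts of 0.1 and 5, other filters, 3 scalings, other fits, a replicate block, sets of Lin+ libraries and leaving out each library. The script was tested on simulated data. Named were Pecam1, Ptprc and Acta1, the 12 largest called differences in each direction with at least 10 FPKM and no overlap between groups, and of each list up to 4 members with the largest difference and any called against its list. Other genes were named after their values were seen. The gene lists and the comparison were chosen with earlier results of these data known. Of the lists, Myh4 and Ccl21a held status words, Mecom, Hba-a1 and Hba-a2 were listed more than once, and Trbc1, Hbb-bt and Ahsp were not found. A further 9 members were below the filter, among them Cd8a, Klf1, Gp9, Treml1, Gp5, Lep, Ucp1 and Fosl1. Some members count in their lists but are not reported here singly. Promoter sequences are from RefSeq. R 4.3.3, limma 3.58.1, Python 3.11.15, pandas 2.3.3, numpy 2.4.6 and matplotlib 3.10.9 were used.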

Additional observations from a re-analysis of the deposited data

Results flagged for a closer look

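Within each group of 4 libraries, a value was marked where its gap to the nearest other library as a part of the range of the group exceeded Dixon's critical value. Of 414 groups of values examined, 48 (11.6%) passed, where chance marks about 1 in 20. The libraries concerned were Lin+ replicate 3 in 18 cases, Lin+ replicate 4 in 10, and whole muscle replicates 1, 2, 3 and 4 in 5, 4, 3 and 8. These values share libraries and are not independent, and no cause was tested. For Cxcl2, Ccl3, Ccl4 and Gzma in whole muscle the other libraries were all listed at 0.001, the lowest value. Any higher value passes in such groups, so the 1 in 20 does not hold for them.

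Lin+ replicate 3 was highest in FPKM for S100a8 (38348), Retnlg (1929), Myh1 (0.327), Ckmt2 (1.55), Pvalb (13.6), Tnnt3 (46.9) and Casq1 (3.096). Lin+ replicate 3 was also highest in FPKM for Sgca (1.83), Lyz1 (701), Acta2 (332), Myh11 (93.7), Nfkbiz (193), Birc5 (38.9) and Mki67 (25.2). Lin+ replicate 3 further was highest in FPKM for Cxcl1 (69.9). Lin+ replicate 3 was lowest in FPKM for Flt4 (3.97) and Emr1 (54.9). The Schwann cell markers held 0.0293% of summed FPKM in Lin+ replicate 3, the lowest share of its group.

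Lin+ replicate 4 was highest in FPKM for Sox18 (119), Sox17 (66.9), Beta-s (14466), Adipoq (0.992) and Npas2 (0.766). The lymphatic endothelial markers held 0.0451% of summed FPKM in Lin+ replicate 4, the highest share of its group. Lin+ replicate 4 was lowest in FPKM for Gzma (7.15). The excitation and calcium handling genes held 0.0141% of summed FPKM in Lin+ replicate 4, the lowest share of its group. The T and NK cell markers held 0.00847% of summed FPKM in Lin+ replicate 4, the lowest share of its group. The feedback and survival genes of the early response held 0.755% of summed FPKM in Lin+ replicate 4, the lowest share of its group.

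Whole muscle replicate 1 was highest in FPKM for Hspa1b (2.07), Cxcl2 (0.135) and Junb (2.93). Whole muscle replicate 1 was lowest in FPKM for Pvalb (7045) and Cd14 (1.27). Whole muscle replicate 2 was highest in FPKM for Ccl3 (0.139), Dll4 (3.79) and Gzma (0.122). Whole muscle replicate 2 was lowest in FPKM for Il6 (0.0951). Whole muscle replicate 3 was highest in FPKM for Idh3a (518). The cell cycle genes held 0.00785% of summed FPKM in whole muscle replicate 3, the highest share of its group. Whole muscle replicate 3 was lowest in FPKM for Hdc (0.001). Whole muscle replicate 4 was highest in FPKM for Ccl4 (0.193), Ctss (11.3), Fn1 (42.7), Col14a1 (5.26) and Tnmd (47.5). The fibrillar collagen and interstitial matrix genes held 0.2898% of summed FPKM in whole muscle replicate 4, the highest share of its group. Whole muscle replicate 4 was lowest in FPKM for Fabp3 (673) and Hspb7 (216).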

How the results depend on the processing

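The counts of genes called higher and lower kept within 1.5 times of 6855 and 3222 under every alternative run, but the scaling moved the balance: quantile normalization gave 5106 higher and 4666 lower, and scaling without fibre genes 5180 and 4323. Leaving out each library in turn gave 6550 to 6798 higher and 3033 to 3180 lower. Sample weights gave 7801 and 3520, and a filter of 5 FPKM 5447 and 2761. Replicate numbers did not pair Lin+ with whole muscle: same-numbered Lin+ and whole-muscle libraries deviated with correlations of -0.35, 0.15, -0.01 and -0.14. With the replicate number as a block the counts were 6674 and 3099 in the fit of both groups and 7137 and 3376 in the fit of all groups. In the fit of both groups Pdgfra lost its call and Pax7 gained one, both without the block (adjusted p = 0.0719 and 0.00462) and with it (0.0962 and 0.0189). Between Lin+ and Lin-, where 3558 genes were higher and 3620 lower, fits of these groups alone, chosen after seeing the data, gave 3090 and 3299 without the block and 4233 and 4255 with it. Of 3799 values of 173 named genes under the alternatives, 3696 kept direction and call, 57 lost the call, 18 gained it and 28 changed sign, the last only in genes not called. Sign changes arose with Lin+ replicates 1 and 2 alone for Clec3b (0.0058) and Hbegf (0.0062), with Lin+ replicates 3 and 4 alone for Slc4a1 (-0.23), Prox1 (-0.024), Chrnb1 (0.015) and Dysf (-0.47), with scaling without fibre genes for Slc4a1 (-0.086), Spry2 (-0.15), Prox1 (-0.077), Dysf (-0.19) and Hspa8 (-0.22), with median-of-ratios scaling for Slc4a1 (-0.16), Spry2 (-0.23), Prox1 (-0.11), Dysf (-0.29) and Hspa8 (-0.31), with quantile normalization for Slc4a1 (-0.28), Mag (-0.0079), Spry2 (-0.29), Prox1 (-0.17) and Dysf (-0.11), with sample weights for Hbegf (0.028). They also arose on leaving out 1 library for Chrnb1 (0.093, 0.021, range from -0.23 to 0.093), Prox1 (-0.021, -0.053, range from -0.053 to 0.076) and Slc4a1 (-0.24, -0.16, range from -0.24 to 0.35). The cause was not tested. Depth is unknown, so differences in genes near 1 FPKM rest on few fragments, and values of 0.001 set no lower bound. Lin+ libraries fell into 2 pairs, and where 1 pair alone changes the call of a named gene, this is said beside it. Whether whole muscle was digested and sorted is not given, so handling and cell content cannot be told apart.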

Other observations

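Genes outside the lists were ranked after their values were seen, by the smallest gap between groups, among 5443 genes of at least 10 FPKM on average in Lin+ or, for those highest in whole muscle, 4057 of at least 10 FPKM there. Values are means in FPKM ± SD (n = 4 each), and these genes were chosen for the pattern described. Highest in Lin+ against the other 4 groups were genes of myeloid cells. Ear2, an eosinophil-type ribonuclease, was 217 ± 149 in Lin+ and 1.74 ± 1.88 in whole muscle, and Retnla, a resistin-like protein of alternatively activated macrophages, 8068 ± 5805 and 90.9 ± 56.1. The Fc receptor gamma chain Fcer1g was 750.5 ± 432 and 10.2 ± 2.21, its adaptor relative Tyrobp 527 ± 163 and 12.8 ± 1.85, and the chemokines Ccl6 and Ccl9 423 ± 61.99 and 205 ± 72.9 in Lin+ against 9.31 ± 2.97 and 3.09 ± 1.07 in whole muscle. Highest in whole muscle were further fibre genes. Nrap, a protein of myofibril assembly, was 472 ± 47.9 in whole muscle and 0.294 ± 0.107 in Lin+, Ankrd2, a stretch-responsive protein, 345 ± 189 and 0.157 ± 0.173, and Mylk2, the skeletal myosin light chain kinase, 315 ± 44.9 and 0.1300 ± 0.0755.

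Some unlisted genes were higher in each of the 4 sorted groups than in whole muscle. Mt1, a metal-binding metallothionein, was 13.8 ± 2.43 in whole muscle, 291 ± 271 in Lin+ and 1136 ± 775 in Lin-. Its relative Mt2 was 6.77 ± 2.76, 107 ± 96.9 and 1322 ± 919.9 in the same order. In Lin+ the Mt1 level was 66.3 and 64.0 in replicates 1 and 2 and 424 and 609 in replicates 3 and 4. Sat1, the rate-limiting enzyme of polyamine breakdown, was 20.4 ± 1.29, 334 ± 48.8 and 308 ± 45.96, and Cdkn1a, the cell cycle inhibitor p21, 5.73 ± 1.32, 71.3 ± 13.7 and 64.2 ± 13.3. Id2 and Id3, inhibitors of basic helix-loop-helix factors, were 4.72 ± 1.03 and 12.8 ± 1.49 in whole muscle and 110.5 ± 45.6 and 203 ± 191 in Lin+. Vim, vimentin, the intermediate filament of non-fibre cells, was 100.4 ± 6.73, 885 ± 321 and 1336 ± 379.6. Cell content and handling cannot be told apart for these genes.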
